A study of Mus musculus with 2 samples.

Results

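Annotated isoforms of mouse heart that began at another first exon than the main isoform of their gene were described from long reads, which follow single cDNA molecules over many exons. An isoform was taken where the transcript model was in the reference annotation (class Known in the deposited tables), belonged to a protein-coding gene, held 3 or more reads in each library, and had a first exon that did not overlap the first exon of the gene's most read Known model. The most read Known model, by reads summed over both libraries, is called the leading model. Of 18449 Known models of protein-coding genes with a read, 1499 were not the leading model and held 3 or more reads in each library, and 422 of these, in 357 genes, had a first exon apart from that of the leading model. The other 1077 had a first exon that overlapped it. These numbers come from the read counts that chose the isoforms, so they are descriptions, as are the levels and shares below.

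The RNA came from the heart of female B6CASTF1/J mice, the F1 hybrid of the B6 and CAST strains, at 2 months of age, with no treatment and no contrast between conditions. There was 1 group with 2 libraries, for each of which 2 µg of RNA was used. The labels of the samples number the mice 3 and 4, but the text on the libraries names mouse 3 for both and both carry the same donor record, so it was not settled whether the libraries come from separate animals. The comparison between them then measures only the spread between these libraries, which may be technical.

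The libraries held 905154 and 745375 reads, of which 859191 and 707758 fell on annotated genes, so 1 read was worth 1.16 and 1.41 counts per 1000000 reads on annotated genes (CPM) and a count of 0 allows up to 3.49 and 4.24 CPM. All 8 cardiomyocyte markers were detected in both libraries, at a summed 46628 and 49571 CPM, and the 2 liver and 2 lung markers had no read in either. Red blood cell genes summed to 25535 and 23673 CPM, fibroblast markers to 896 and 822 CPM, endothelial markers to 226 and 290 CPM, and adipocyte markers to 113 and 45.2 CPM. The part of each cell type in the isoforms below was not tested, and fewer cells of a type cannot be told apart from less RNA per cell in whole heart tissue.

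A gene can be transcribed from more than one promoter. Each promoter gives its own first exon, which is usually spliced to exons that all isoforms share. Where the start codon lies in a shared exon, such isoforms differ only in the leader before the coding sequence. Where each first exon brings a start codon of its own, the protein gains or loses residues at its amino end, which can change its place in the cell or the partners it binds. In heart, promoters are known to be chosen by cell type, stage and stress, with Rcan1 and Gsn among the textbook cases.

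To show what lies before an isoform's start and before that of the leading model, 100 bases upstream of each start are printed for 8 genes with separate first exons. They were taken in order of read level among pairs where both starts lay within 100 bases of a RefSeq start and the stretch met no exon of a protein-coding gene on the same strand. The bases are those of RefSeq on GRCm38.p6, 5′ to 3′ on the strand of the gene, and end just before the RefSeq start. CG dinucleotides, which are dense in CpG-island promoters, are in capitals.
Rcan1-202, chr16:92466170-92466269, minus strand: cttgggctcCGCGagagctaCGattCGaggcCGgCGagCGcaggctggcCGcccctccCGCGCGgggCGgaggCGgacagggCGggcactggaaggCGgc
Rcan1-201, leading, chr16:92400079-92400178, minus strand: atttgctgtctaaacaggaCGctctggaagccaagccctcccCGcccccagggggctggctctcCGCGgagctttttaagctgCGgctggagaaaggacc
Acsl1-201, chr8:46470937-46471036, plus strand: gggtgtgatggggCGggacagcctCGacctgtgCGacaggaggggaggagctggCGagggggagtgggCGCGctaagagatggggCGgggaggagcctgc
Acsl1-203, leading, chr8:46490866-46490965, plus strand: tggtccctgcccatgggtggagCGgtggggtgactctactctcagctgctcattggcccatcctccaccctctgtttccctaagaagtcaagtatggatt
Pacsin2-202, chr15:83432851-83432950, minus strand: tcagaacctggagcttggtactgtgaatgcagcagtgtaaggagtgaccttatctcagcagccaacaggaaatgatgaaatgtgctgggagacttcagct
Pacsin2-203, leading, chr15:83464607-83464706, minus strand: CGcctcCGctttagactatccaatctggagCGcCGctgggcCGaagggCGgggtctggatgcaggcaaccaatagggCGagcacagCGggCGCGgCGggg
Adk-207, chr14:21076052-21076151, plus strand: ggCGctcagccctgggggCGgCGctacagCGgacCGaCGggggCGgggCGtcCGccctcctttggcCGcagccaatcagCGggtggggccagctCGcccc
Adk-201, leading, chr14:21052474-21052573, plus strand: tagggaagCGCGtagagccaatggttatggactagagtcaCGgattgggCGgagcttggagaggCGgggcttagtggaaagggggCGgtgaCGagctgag
Nfe2l1-211, chr11:96829503-96829602, minus strand: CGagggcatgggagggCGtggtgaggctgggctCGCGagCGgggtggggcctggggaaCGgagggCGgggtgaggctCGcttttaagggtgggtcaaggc
Nfe2l1-201, leading, chr11:96829969-96830068, minus strand: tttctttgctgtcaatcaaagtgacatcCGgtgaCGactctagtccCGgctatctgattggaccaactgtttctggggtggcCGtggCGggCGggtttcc
Cd151-203, chr7:141467262-141467361, plus strand: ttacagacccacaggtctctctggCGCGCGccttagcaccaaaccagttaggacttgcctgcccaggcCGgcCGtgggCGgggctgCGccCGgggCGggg
Cd151-201, leading, chr7:141468689-141468788, plus strand: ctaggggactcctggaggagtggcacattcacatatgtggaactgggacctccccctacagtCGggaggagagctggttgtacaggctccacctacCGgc
Polr2m-202, chr9:71484959-71485058, minus strand: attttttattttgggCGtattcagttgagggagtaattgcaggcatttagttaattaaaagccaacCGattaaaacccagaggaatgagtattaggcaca
Polr2m-201, leading, chr9:71485984-71486083, minus strand: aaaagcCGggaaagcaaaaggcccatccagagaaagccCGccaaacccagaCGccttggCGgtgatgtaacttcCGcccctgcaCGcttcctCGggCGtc
Pkig-203, chr2:163693937-163694036, plus strand: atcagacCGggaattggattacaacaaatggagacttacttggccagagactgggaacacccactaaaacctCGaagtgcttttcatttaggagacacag
Pkig-201, leading, chr2:163658286-163658385, plus strand: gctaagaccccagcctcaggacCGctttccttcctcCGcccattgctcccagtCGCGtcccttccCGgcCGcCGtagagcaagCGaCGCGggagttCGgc
The 8 pairs held both kinds of order. The stretch before the isoform held more CG dinucleotides than that before the leading model in Rcan1 (15 against 5), Acsl1 (7 against 1), Adk (12 against 7), Nfe2l1 (8 against 6) and Cd151 (9 against 2). It held fewer in Pacsin2 (0 against 11), Polr2m (2 against 8) and Pkig (2 against 11). In Acsl1, the leading start had 1 CG dinucleotide and a cagctg within its stretch, where the upstream start had 7 CG dinucleotides.

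Sequences at the coding start show how the annotated coding sequences of both models differed. No protein was measured. The first 60 coding bases are printed for 5 genes whose 2 models share coding bases and are annotated with different start codons, in GENCODE M21, and capitals mark coding bases that the other model of the pair does not code.
Ugp2-201: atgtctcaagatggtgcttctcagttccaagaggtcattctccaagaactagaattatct
Ugp2-202, leading: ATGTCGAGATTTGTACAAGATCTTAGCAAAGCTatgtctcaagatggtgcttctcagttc
Rcan1-202: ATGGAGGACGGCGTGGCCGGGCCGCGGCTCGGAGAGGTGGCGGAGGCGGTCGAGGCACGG
Rcan1-201, leading: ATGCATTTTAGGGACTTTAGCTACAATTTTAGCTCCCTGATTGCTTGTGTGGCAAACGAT
Adk-207: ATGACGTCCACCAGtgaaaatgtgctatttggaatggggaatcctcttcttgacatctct
Adk-201, leading: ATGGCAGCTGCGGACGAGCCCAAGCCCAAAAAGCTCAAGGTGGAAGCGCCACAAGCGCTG
Grsf1-202: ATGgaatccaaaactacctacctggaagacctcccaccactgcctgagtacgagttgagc
Grsf1-201, leading: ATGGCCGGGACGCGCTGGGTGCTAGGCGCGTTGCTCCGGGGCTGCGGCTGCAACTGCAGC
Polr2m-202: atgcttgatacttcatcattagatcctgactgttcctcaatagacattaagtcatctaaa
Polr2m-201, leading: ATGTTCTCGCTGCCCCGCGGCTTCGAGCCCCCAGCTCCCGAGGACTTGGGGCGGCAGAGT
In Ugp2, the enzyme that makes UDP-glucose for glycogen, the isoform had no coding base of its own. The leading model had 33 more at its start, so the annotated proteins were 497 and 508 residues long. In Adk, adenosine kinase, 14 own bases of the isoform stood against 62 of the leading model, for 345 and 361 residues. In Rcan1, an inhibitor of the phosphatase calcineurin, 246 own bases stood against 87, for 251 and 198 residues. Grsf1, which codes for an RNA-binding protein of mitochondria, had 3 own bases in the isoform and 354 in the leading model, for 362 and 479 residues. In Polr2m, the leading model had 312 own coding bases and 366 annotated residues, and the isoform had none of its own and 262 residues. Grsf1, Polr2m and the upstream pairs of Pacsin2, Nfe2l1, Cd151 and Pkig are shown for their place in read order and are not covered by the rule for named genes.

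The 422 isoforms fell into 3 arrangements. In 217 isoforms of 190 genes, the first exon met no exon of the leading model and the leading first exon met no exon of the isoform, called separate first exons here. In 148 isoforms of 141 genes, the first exon overlapped an internal or last exon of the leading model, called inside a leading exon here. The first exon could also reach beyond that leading exon, and not all of these isoforms were annotated as shortened copies. Of the 18 with another start codon, 2 only gained coding bases, and in 7 both models had coding bases of their own. In 57 isoforms of 43 genes, the first exon of the leading model itself overlapped an exon of the isoform. A cDNA that stopped short of the 5′ end of the mRNA can give a read that matches a nested annotated model, and for the last 2 arrangements this cannot be told apart from a true inner start in these files, since the deposited ends of Known models were those of GENCODE and not those of the reads. A spliced read assigned to a separate first exon crossed the junction that leaves that exon. The arrangements compare an isoform with the leading model only. Whether a separate first exon is an internal exon of another isoform was not tested, so a shortened cDNA is not set aside there either.

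The arrangements had unlike structures. Of the 217 separate first exons, 160 were spliced to the second exon of the leading model, 19 to a later exon and 38 to none of its exons, and 158 isoforms had as many exons as the leading model. All 148 isoforms that began inside a leading exon had fewer exons than the leading model, 11 of them a single exon. All 57 of the third arrangement had more. The annotation called 210 of the 217 separate isoforms protein-coding, 55 of the 57, and 61 of the 148 inside a leading exon, where 76 were retained introns. The leading model was itself a retained intron for 24 isoforms, 19 of them in the third arrangement. Transcript support level 1, the best grade of the annotation, was held by 156 of 217, 70 of 148 and 39 of 57.

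Most genes had a single such isoform. There were 305 genes with 1, 43 with 2 and 9 with 3 or more, and in 48 genes the isoforms came from at least 2 different starts. Fxyd1, which codes for phospholemman, a small regulator of the sodium pump, had the most with 7, all in the third arrangement, and its leading model was a retained intron with 1300 and 799 reads. Cd36, the fatty acid carrier of the muscle membrane, had 3, and Asph, whose gene makes junctin of the calcium release unit as well as an aspartyl hydroxylase, had 3 from 1 shared first exon.

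Starts lay a median of 2520 bases apart along the genome, with quartiles of 519.5 and 15615 and a range from 34 to 753128. A distance below 500 bases was found for 103 isoforms, 500 to 5000 for 156, 5000 to 50000 for 126 and more for 37. The median was 2521 for separate first exons, 2464 for isoforms inside a leading exon and 2595 for the third arrangement, against 36 for the 1077 models with overlapping first exons, which the rule sets apart by position. With only models annotated as protein-coding considered, which left 306 isoforms, the median was 1209 bases. Among the separate first exons, 111 began downstream of the leading start and 106 upstream. Relative to the whole leading model, 163 isoforms of all arrangements began upstream of it, 109 within an intron, 148 over an internal or last exon, and 2 beyond its end.

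**Figure D1:**
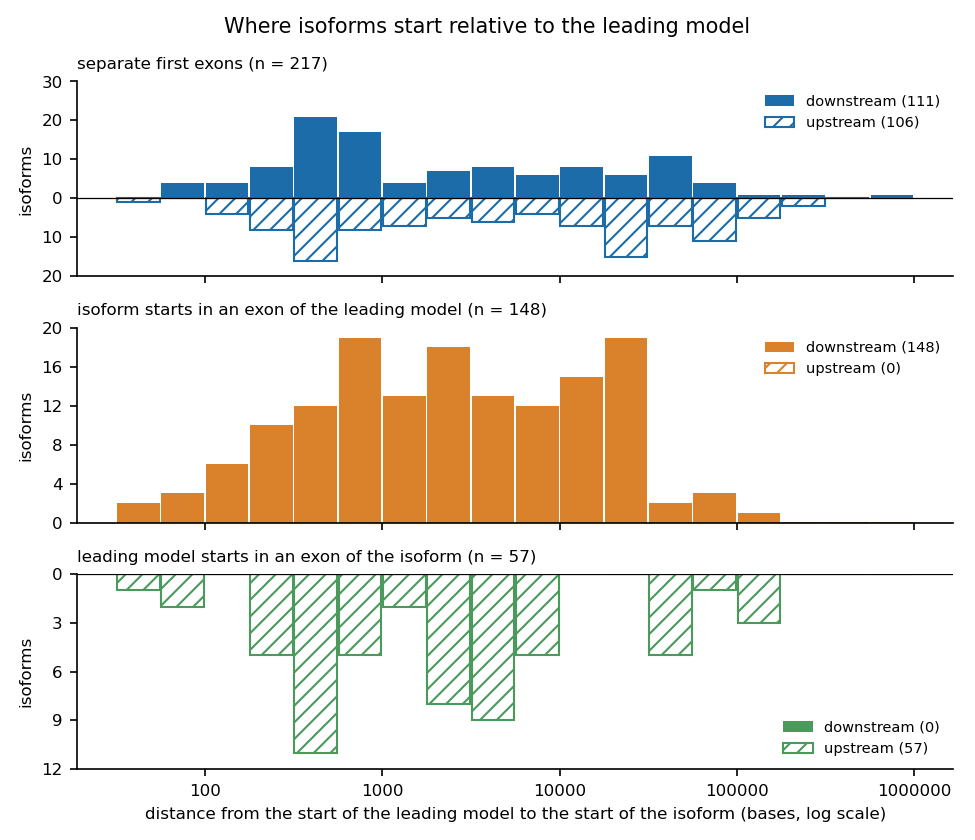
Number of isoforms by distance from the leading start to their own start, in bases on a log axis, for the 3 arrangements; filled bars above 0 are downstream starts and hatched bars below 0 are upstream starts. Separate first exons split into 111 downstream and 106 upstream, while the arrangement itself sets the side for the 148 and the 57 isoforms of the other panels.

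The 5 widest pairs were all separate first exons. Camta1-204 began 753128 bases downstream of Camta1-212, a model annotated without a protein, with 6 and 4 reads against 136 and 89. Palld-202 of palladin, an actin-binding protein of the Z-disc, began 311527 bases downstream of its leading model, with 3 and 5 reads against 14 and 16. Upstream starts were 247267 bases away for Tcf4-206, 196149 for Filip1l-203 and 177499 for Sgms1-201. The widest pairs had few reads, with no more than 12 in a library for any of these 5 isoforms.
At the other end, Ubxn1-202 began 34 bases upstream of its leading model and Bcap29-201 36 bases downstream. Atp5g1-201 was 51 bases upstream and Apoo-201 66 bases downstream, and both still had first exons apart from the leading one. For 33 isoforms the gap between the first exons was under 50 bases, and the smallest was 2 bases. Just outside the rule, the smallest overlap of first exons was 1 base, and 14 models had overlapping first exons with starts 500 or more bases apart. At the read minimum, 92 isoforms had 3 reads in the library with fewer (median of the other library 4), and 173 models had 2 and were left out (median 3).

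The isoforms carried a small part of the heart transcriptome and a larger part of their own genes. They held 10648 and 8621 reads, which is 1.67% and 1.64% of the Known reads of protein-coding genes and 7.40% and 7.49% of the Known reads of their 357 genes. The separate first exons held 3928 and 3341 reads, which is 8.21% and 8.69% of the Known reads of their 190 genes. Taken isoform by isoform, the share of the gene's Known reads had a median of 15.3% in each replicate, and of 16.0% for the mean of both (quartiles 5.68% and 29.1%). The median mean share was 18.5% for separate first exons, 9.27% for isoforms inside a leading exon and 24.6% for the third arrangement, beside 21.3% for the models with overlapping first exons. A share of 20% or more in both libraries was found in 153 isoforms, 89 of them separate, 35 inside a leading exon and 29 of the third arrangement. Below 5% in both were 77, namely 24, 44 and 9.
The median level was 9.87 CPM, so most of these isoforms rested on few reads and counting error was wide. Shares differed between the replicates by a median of 2.89 percentage points. With the reads of all model classes of the gene as the denominator, shares were lower by over 1.5 times in 28 of the 86 named isoforms, among them Palld-202 (20.7% to 3.01%), Agpat3-204 (48.6% to 13.7%), Cd36-201 (25.5% to 8.78%), Cd36-203 (24.8% to 8.51%) and Trdn-208 (42.8% to 23.9%).

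**Figure D2:**
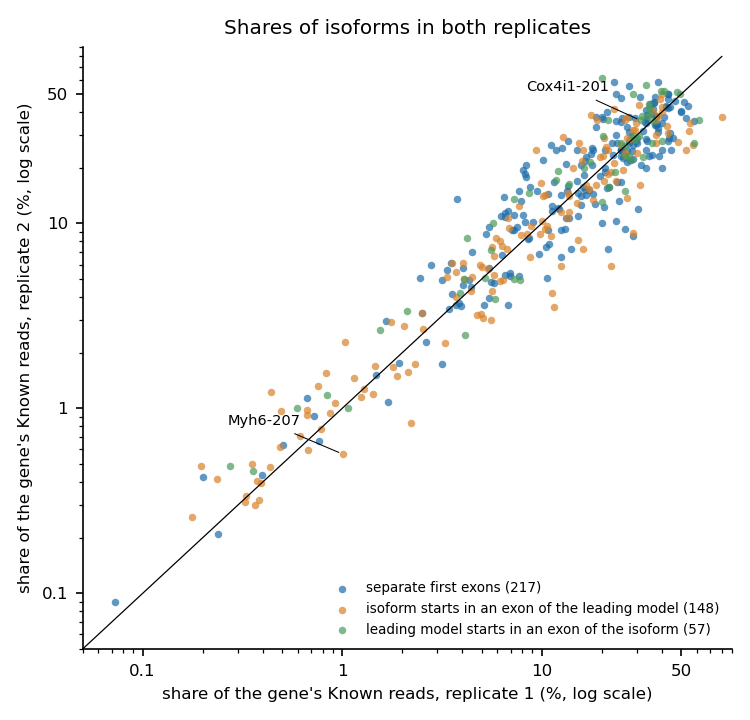
Share of the gene's Known reads held by each of the 422 isoforms in replicate 1 and replicate 2, in percent on log axes, coloured by arrangement, with the line of equality. Points spread around the line at all shares, and the 2 isoforms whose share differed by the test are named.

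The shares were compared between the libraries with Fisher's exact test, two-sided, with Benjamini-Hochberg adjustment over the 1499 models that were not the leading one. Both models called at an adjusted p below 0.05 were among the 422 isoforms, and they made up 0.133% of the models tested. Cox4i1-201 held 2411 of the gene's reads in replicate 1 and 1845 in replicate 2, which is 31.4% and 36.1% (adjusted p = 7.98e-05, Fisher's exact test). Its leading model, Cox4i1-204, held 5218 and 3232 reads. Myh6-207 held 135 and 71 reads, which is 1.01% and 0.567% of the Known reads of Myh6 (adjusted p = 0.0464, Fisher's exact test). Neither was a separate first exon, so the limit on shortened cDNA given for nested starts holds for both. With only the reads of the isoform and its leading model counted, Cox4i1-201 alone was called. With only protein-coding models none was called. Cox4i1-204 is a retained intron and drops out there, so Cox4i1-201 becomes the leading model and could not be called. Without adjustment, 13 isoforms passed, 3.08% of the 422, beside 3.07% of all models tested.
For levels, 322 isoforms had 10 or more reads in all and had their levels set against the reads on annotated genes in an exact binomial test, adjusted over 8215 Known models. A single isoform had both an adjusted p under 0.05 and a change of 2-fold or more, beside 0.158% of all models tested. It was among the 148 inside a leading exon and was not a separate first exon. Tmsb10-202, of a thymosin that binds actin monomers, had 117 reads (136 CPM) in replicate 1 and 45 (63.6 CPM) in replicate 2, a log2 ratio of -1.09 (exact binomial test, adjusted p = 0.00183). Its leading model had 157 and 88 reads, and the share of Tmsb10-202 was 42.7% and 33.8%, which did not pass the share test (adjusted p = 1, Fisher's exact test). No isoform passed in edgeR's exact test where a preset variation replaced counting error alone. At an unadjusted p below 0.05 and any fold there were 22 of the 322 isoforms tested, beside 650 of all 8215 models tested, or 7.91%.

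Atp5g1-201, of a subunit of the ATP synthase ring, had 301 and 220 reads against 2129 and 1574 of its leading model, a share of 12.2% and 12.0%. Both code for the same 136 residues, but the models are 4715 and 596 bases long, so they differ in more noncoding bases than the 51 between the starts. Myl12a-206, of a regulatory myosin light chain of non-muscle type, had 291 and 168 reads against 563 and 434, a share of 33.9% and 27.9%, from a start 4542 bases upstream with the same 172 residues.
Hopx codes for a small homeodomain protein that acts in the heart without binding DNA itself. Hopx-202 had 167 and 129 reads and the leading Hopx-201 had 176 and 142. The share was 46.4% and 46.1%, or 46.2% ± 0.225 (SD, n = 2), from a start 19844 bases downstream and for the same 73 residues. Both first exons were thus read about equally in both libraries, and which was higher was the same in each.
Dcn-202 of decorin, a proteoglycan of fibroblasts, had 109 and 90 reads against 368 and 292, a share of 22.9% and 23.6%. Its first exon lay 2758 bases downstream of the leading one and the protein of 354 residues was the same. Decorin is also 1 of the 5 fibroblast markers above, and the cell type behind each first exon was not measured.
Hdlbp-202 had 78 and 80 reads against 180 and 195, a share of 30.2% and 29.1%, from 33115 bases upstream. BC004004-203 had 97 and 79 reads against 85 and 93, so the order of both models turned between the libraries.

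**Figure D3:**
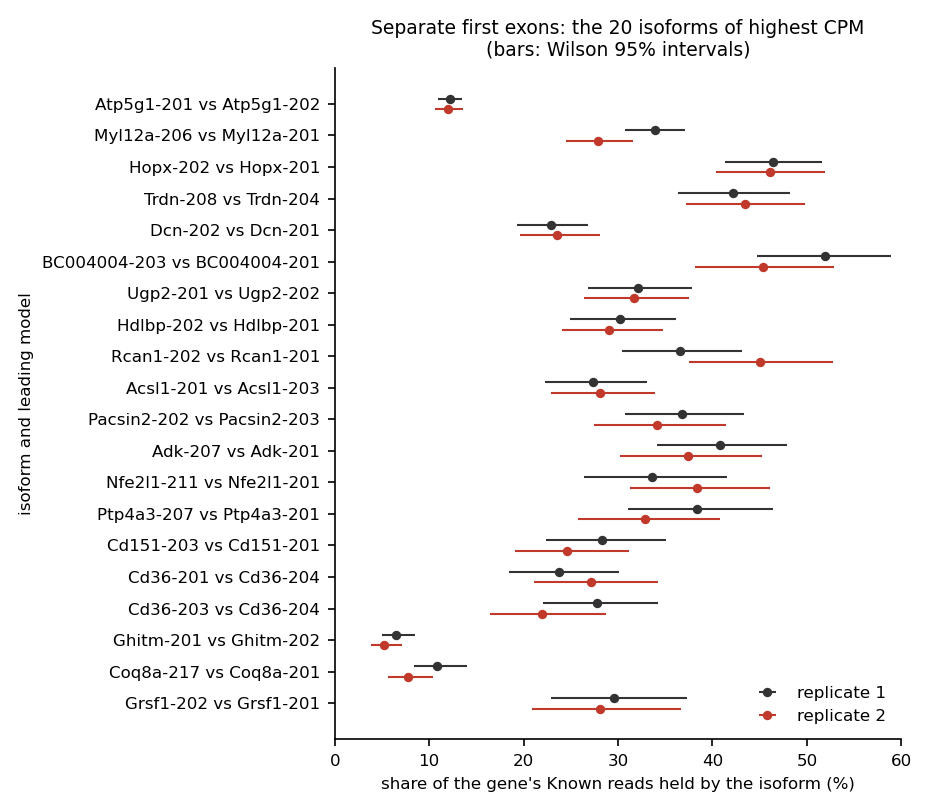
Share of the gene's Known reads, in percent, held by the 20 separate first-exon isoforms with the highest CPM in replicate 1 (black) and replicate 2 (red), with Wilson 95% intervals that cover counting error only. The intervals of both replicates overlap in every gene shown, from Atp5g1 near 12% to BC004004, whose shares were 51.9% and 45.4%.

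Acsl1 activates long-chain fatty acids for oxidation and Cd36 brings them into the cell. Acsl1-201 had 71 reads in each library, and the leading Acsl1-203 had 189 and 182, a share of 27.3% and 28.1%. The first exon of Acsl1-201 at chr8:46471037-46471230 lay 19929 bases upstream of that of Acsl1-203 at chr8:46490966-46491161, and both gave 699 residues. Across the whole promoter window of 300 bases, the ratio of observed to expected CpG was 0.859 at the upstream start and 0.214 at the leading one.
In Cd36, the leading Cd36-204 had 73 and 61 reads, while Cd36-203, from 38955 bases upstream, had 56 and 38 and Cd36-201, from 14096 bases downstream, had 48 and 47. Another, Cd36-206, had 14 and 9 and left its first exon by the same donor as Cd36-201. All 4 code for the same 472 residues. The 3 sets of first exons were within 1 gene, so these shares are parts of 1 whole and not independent of each other.
Ugp2-201 had 88 and 84 reads against 186 and 181 for the leading model, whose extra coding start is printed above, a share of 32.1% and 31.7%. Adk-207 had 78 and 58 reads against 108 and 93, a share of 40.8% and 37.4%, from 23578 bases downstream. Both genes thus had reads on the models with the longer and the shorter annotated protein in each library, with the longer one ahead.
Fh1-203, Slc25a3-204, Idh2-206 and Idh3a-203 were retained introns inside a leading exon, without a coding sequence, and are counted with the nested isoforms. Fh1-203, of fumarase, had the most reads of them, 174 and 121 against 754 and 626.

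Among isoforms with another start codon, Rcan1 was the most read separate pair after Ugp2. Rcan1-202 had 79 and 72 reads and the leading Rcan1-201 had 137 and 88. The share was 36.6% (Wilson 95% interval 30.4 to 43.2%) and 45.0% (37.5 to 52.7%). The upstream first exon lay at chr16:92465833-92466146 on the minus strand and the leading one at chr16:92399896-92400077, 66069 bases between the starts. The leading model is the form whose promoter is known to respond to calcineurin and NFAT. It was the more read form in both libraries, and the intervals of the shares of Rcan1-202 overlapped between them.
Sgk1-201, of a kinase that acts on ion channels, had 29 and 21 reads against 26 and 31, so the order turned, with 431 and 445 residues. Lims1-202, of the adaptor PINCH1 at integrin sites, had 18 and 20 reads against 15 and 33, which also turned, with 337 and 387 residues from 70922 bases upstream. Agpat3-204, an acyltransferase of phospholipid synthesis, turned with 34 and 22 reads against 29 and 28, but coded for the same 376 residues. In all, the order of isoform and leading model turned between the libraries in 28 isoforms, 13 of them separate. These 28 are 6.64% of the 422, beside 8.47% of the 1499 models and 9.19% of the 1077 with overlapping first exons. Turning was thus no more frequent in these isoforms than in the other models. The best read of the 28 was Trdn-208, with 110 and 102 reads.
Gsn-205, of cytoplasmic gelsolin, had 24 and 20 reads against 6023 and 4555 of the leading model, a share of 0.397% and 0.437%, from 26000 bases upstream. It codes for 731 residues against 780. Tpm1-211, of the actin filament protein tropomyosin, had 6 and 6 reads against 8235 and 6609, the lowest mean share of all, 0.0812%, with 248 residues against 284.

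In the calcium release unit, Asph had 3 isoforms from the first exon at chr4:9668781-9669162, 25445 bases upstream of the leading Asph-206. Asph-204 had 11 and 9 reads, Asph-201 4 and 8, and Asph-210 3 and 3, against 72 and 90. They code for 310, 245 and 294 residues, and the leading model for 207. Trdn-208, of triadin, which binds junctin and the ryanodine receptor, had 110 and 102 reads and began 118151 bases upstream of Trdn-204, a retained intron with 132 and 101. As the leading model of Trdn is not annotated with a protein, the pair gives no comparison of coding sequences.
Kcnh2 codes for the channel of the rapid delayed rectifier current, and was picked for description after its values were seen. Kcnh2-201, the longer form of 1162 residues, had 13 and 23 reads against 28 and 38 of Kcnh2-202, with 820 residues, from 22013 bases upstream. The share was 29.5% and 37.1%, and the shorter form led in both libraries.
Among the contractile genes, Mylk3-203 of the cardiac myosin light chain kinase had 4 and 6 reads against 595 and 520, and Synpo2l-203 of a Z-disc protein had 10 and 3 against 28 and 28. Both code for shorter proteins than their leading models, 662 against 795 residues and 749 against 978. Rxrg-201 of the retinoid X receptor gamma had 7 and 3 reads against 59 and 56, and coded for 463 residues against 340. Pparg-204 had 6 and 3 against 12 and 9, for the same 475 residues. Each of these isoforms had 10 or fewer reads per library.

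The isoform with the most reads of all 422 belonged to the third arrangement. Cox4i1-201, the coding form of a subunit of cytochrome c oxidase with 169 residues, was outnumbered by Cox4i1-204, a retained intron. Cox4i1-204 begins 4368 bases further on, with a first exon that overlaps an exon of Cox4i1-201. Its reads cannot be told apart from those of shortened cDNA in these files. Nme2-201, of a nucleoside diphosphate kinase, had 258 and 209 reads against 267 and 210, a share of 49.1% and 49.9%, from 476 bases upstream with the same 152 residues. Fxyd1-203 had 229 and 179 reads, a share of 13.7% and 16.4%, and the same 92 residues were annotated for all 7 isoforms of Fxyd1 here.
Scp2 showed the widest difference in annotated protein among the most read pairs. Scp2-201, which holds the peroxisomal thiolase together with the sterol carrier domain, had 62 and 73 reads against 290 and 265 for the leading Scp2-202, from 47113 bases upstream. It codes for 547 residues and the leading model for 143, since Scp2-202 has no coding base of its own and Scp2-201 has 1212.
Inside a leading exon, Asb2-204, of a ubiquitin ligase subunit of muscle, had 210 and 137 reads against 812 and 670, a share of 20.5% and 16.9%. It began 17628 bases downstream, with 62 coding bases of its own, for 586 residues against 634. Cox6c-203 had 214 and 137 reads against 1770 and 1263 with the same 76 residues, and Plin5-202, of a lipid droplet coat protein, had 82 and 90 against 298 and 269 with the same 463. Hba-a1-202 had 131 and 104 reads, but Hba-a1 and Hba-a2 are near-identical copies, so how reads were split between them is uncertain.

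Coding change depended on the arrangement. Across the 422 isoforms, 164 shared the whole coding sequence with the leading model, 123 had another start codon, 95 were not annotated as coding, 23 had a leading model that was not, and 14 had the same start codon with other coding bases further on. The remaining isoforms were 1 annotated for decay and 2 in which a coding start was not annotated. Of the 217 separate first exons, 99 shared the coding sequence and 94 had another start codon, and only 6 were not coding. Of the 148 inside a leading exon, 87 were not coding, 40 shared the coding sequence and 18 had another start codon. Among the 57 of the third arrangement the numbers were 2, 25 and 11, with 18 leading models not coding. Among the 1077 models with overlapping first exons, 571 had the same start codon with another coding sequence, 265 the same coding sequence and 74 another start codon.
Where the start codon differed, the annotated protein was shorter than that of the leading model in 66 isoforms. It was longer in 53 and equal in length in 4. The median difference was 39 residues, with quartiles of 17 and 103.5. The stop codon was shared in 114 of the 123, and in 121 all coding bases that both models hold were read in the same frame. In 32 the isoform only lost coding bases, in 18 it only gained them, and in 73 both models had coding bases of their own. Among the separate first exons, 38 of 94 were longer, 52 shorter and 4 equal, with a median difference of 42.5 residues.

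A measure that did not choose the isoforms came from reads of spliced models outside the Known class, which are models that match part of an annotated junction chain, combine its known junctions anew or hold a new splice site (classes ISM, NIC and NNC). Their reads were counted as from a first exon where their first junction used the donor site of that exon. Whether the model began within that exon was not checked. An incomplete model of an isoform that uses this donor at an internal exon is thus counted too. Of the 422 isoforms, 405 entered this count, which left out the 11 single-exon isoforms and a few spliced ones. Among the 405, 226 had a read outside the Known class with the donor of their first exon in either library, and 123 in both. For separate first exons the numbers were 141 and 74 of 214. They were 45 and 23 of 137 for isoforms inside a leading exon, and 40 and 26 of 54 for the third arrangement.
With 10 or more such reads over both first exons, 81 separate isoforms could be placed on a scale from leading to own first exon. The isoform's first exon took a median of 17.5% of Known reads and 14.8% of the other reads. The 2 values were within 10 percentage points for 42, and the other reads gave the higher value for 40 and the lower for 41. Pearson's correlation was 0.327 across these 81 isoforms, which share libraries and in part genes, and it is given as a description. For isoforms inside a leading exon (62 with enough reads) the medians were 6.26% and 0%, and for the third arrangement (19) 21.3% and 14.9%. At a median of 0%, most of these nested isoforms had no other spliced read that left their first exon.
Single genes parted widely in this measure. Palld-202 had 45 and 41 other reads from its first exon against 7 and 5 from the leading one, or 87.8%, where Known reads gave 21.1%. Cd36-203 had 54 and 38 against 89 and 95, or 33.3% beside 36.6% of Known reads, while the first exon of Cd36-201 had 4 and 3, or 3.66% beside 42.0%. Agpat3-204 had 0 and 2 against 65 and 48, or 1.74% beside 49.6%. Gsn-205 had 5 and 1 against 109 and 85, or 3.00% beside 0.414%. The first-exon donor of Palld-202 was therefore more frequent than the leading one in unannotated models and less frequent in Known models. That of Agpat3-204 was read nearly as much as the leading one in Known models and rarely in the others. Whether the unannotated models began in these first exons was not tested.

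**Figure D4:**
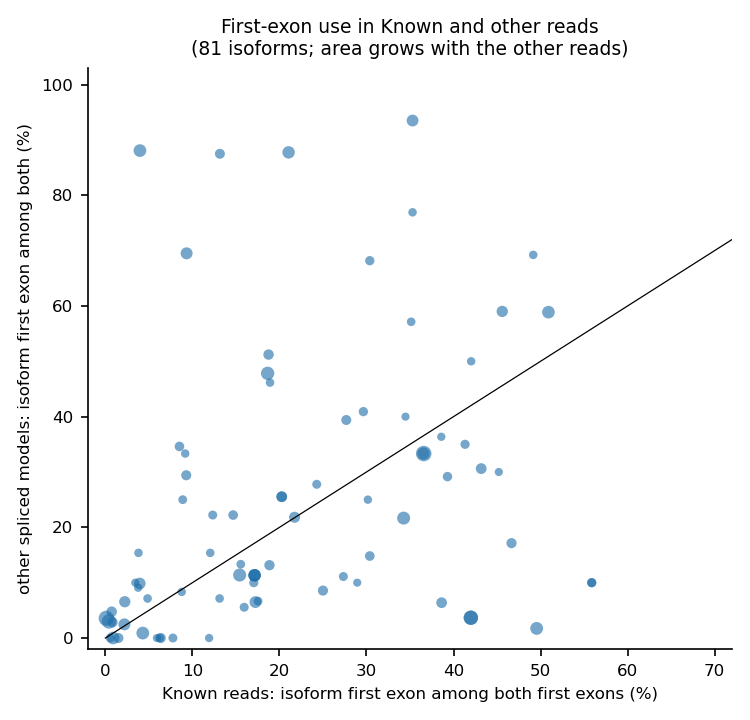
For 81 separate first-exon isoforms, reads whose first junction used the donor of the isoform's first exon, as a percent of reads with either first-exon donor. Known models are on the x axis and other spliced models on the y axis, with the line of equality and point areas that grow with the number of other reads. The values are within 10 percentage points for 42, with points far above the line such as Palld-202 at 21.1% and 87.8%.

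Promoter windows of RefSeq, 250 bases before to 50 after a start, were matched to the separate first exons within 100 bases. A window was found for 124 of the 217 isoforms and for 134 of their leading models, and 94 isoforms of 85 genes had both, in 88 pairs of windows. In 8 pairs the windows overlapped. The median ratio of observed to expected CpG was 0.646 in the 117 distinct windows of isoforms and 0.775 in the 120 of their leading models, beside 0.804 in 5022 windows of leading models of protein-coding genes and 0.384 in all 32851 windows. A ratio of 0.6 or more was held by 53.8%, 74.2%, 80.5% and 35.8% of these.
Pair by pair, the order went both ways: the isoform's window had the higher ratio in 41 and the lower in 47, with a median difference of -0.0283. Both windows were at 0.6 or above in 37 pairs, the leading one alone in 25, the isoform's alone in 11 and neither in 15. With a match within 20 bases, 42 pairs were left, 15 with the leading window alone and 4 with the isoform's alone.

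**Figure D5:**
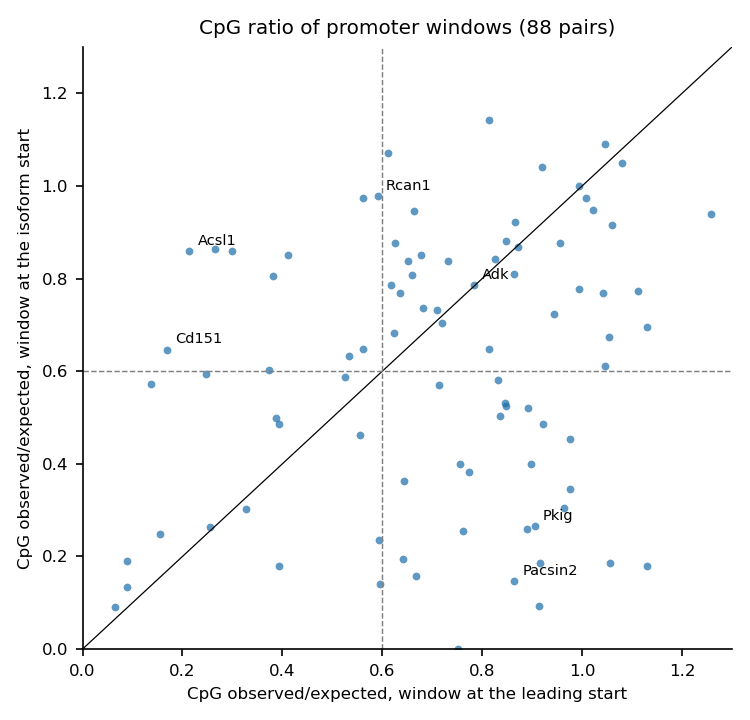
Ratio of observed to expected CpG in the promoter window at the leading start (x axis) and at the start of the isoform (y axis) for 88 pairs, with the line of equality and dashed lines at 0.6. The upper left holds the 11 pairs with the isoform alone above 0.6, among them Acsl1, Rcan1 and Cd151, and the lower right the 25 with the leading start alone, among them Pacsin2 and Pkig.

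In these windows 11 motifs were searched on both strands, none of which holds another. TATAAA, the core of the TATA box, was in 12 of 117 windows of isoforms (10.3%) and 3 of 120 windows of their leading models (2.50%), beside 6.95% of the 5022 windows of all leading models and 13.6% of all windows. CAGCTG, an E-box, was in 29 (24.8%) and 21 (17.5%), beside 14.1% and 16.3%. AGATAA, the GATA motif, was in 11 (9.40%) and 4 (3.33%), beside 5.50% and 11.2%. GGGCGG, bound by Sp factors, was in 72 (61.5%) and 84 (70.0%), beside 69.6% and 35.7%, and CCAAT in 48 (41.0%) and 43 (35.8%), beside 40.6% and 37.4%. GCCATCTT was in 4 and 4 (5.89% of the windows of all leading models and 2.75% of all windows), CCGGAAGT in 2 and 6 (10.3% and 3.89%), TGACGTCA in 1 and 4 (3.80% and 1.79%), and the NRF1 motif in 0 and 1 (2.43% and 0.971%). A MEF2 motif (0.0996% and 0.110%) and TCAAGGTCA (0.239% and 0.423%) were in none of either. These are matches of letters, with no test, and no factor's binding was measured.

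Over all protein-coding genes, 357 of 11343 with a Known read, and 357 of the 1214 with a second Known model, had an isoform with another first exon, and 5 lists drawn up for heart are set beside this. Of 30 genes of contraction and the Z-disc, 27 had a Known read, 8 had a second Known model with 3 or more reads in each library, and 4 had such an isoform, all separate: Mylk3, Palld, Synpo2l and Tpm1. Of 30 genes of calcium handling, channels and signalling, 3 had one (Asph, Kcnj11 and Rcan1), out of 23 with a Known read and 9 with a second model. Energy metabolism had 5 of 30 (Acsl1, Cd36, Idh2, Idh3a and Slc25a3), out of 30 with a Known read and 7 with a second model. Transcription factors and cofactors had 3 of 35 (Pparg, Rxrg and Tcf4), out of 32 and 6. Cytoskeleton and membrane genes had 3 of 29 (Gsn, Lims1 and Ndrg4), out of 22 and 5.
Of 30 genes known in textbooks for more than 1 promoter, 25 had a Known read and 9 had a second Known model with 3 or more reads in each library. An isoform with another first exon was found in 6, namely Ank1, Asph, Gsn, Rcan1, Tcf4 and Tpm1. Their 8 isoforms had a median share of 4.56%, beside 16.0% over all 422. For the other genes of that list, a second first exon was not detectable by this rule at this depth, which does not show that it is unused.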

How the data were processed

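The deposited values were whole-number read counts per transcript model, 1 table per library, made by the authors and not normalized, per the file headers, with models and classes of TALON form on mm10, per the labels. For the aligner, its version and any filters: not given in the sources used here. Exon structures were read from the deposited annotation files, and those of Known models equalled GENCODE M21, which gave coding sequences and transcript classes. RefSeq windows on GRCm38.p6 gave promoter sequences, for 124 of 217 separate isoforms. No protein sequences were used here. The coding start of 1 pair is not reported here.

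The rule, the gene lists and the tests were chosen with earlier results of these data known. Share means reads of a model over the Known reads of its gene, and CPM uses reads of annotated genes without spike-ins. Shares were tested with Fisher's exact test and levels with an exact conditional binomial test, both two-sided with p-values adjusted by Benjamini and Hochberg; a call needed an adjusted p under 0.05, and for levels also a 2-fold change with 0.5 reads added. With 1 library on each side, edgeR's quasi-likelihood test had no residual degrees of freedom. Python 3.11.15, scipy 1.17.1, pandas 2.3.3, R 4.3.3, edgeR 4.0.16 and DESeq2 1.42.0 were used, and the tests were tested on simulated data. Intervals are Wilson 95% and, with the floor of 3 reads, cover counting error only.

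Named isoforms were the 20 of highest CPM, the 5 widest and 5 narrowest distances, the 10 highest shares, each whose order turned or whose share was called, the 5 most read of each arrangement and coding change, and up to 5 of each list. Alternatives were other read minimums, denominators, scalings, distances and model classes. Those with protein-coding models only and with promoter starts within 20 bases were chosen after seeing the data.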

Additional observations from a re-analysis of the deposited data

How the results depend on the processing

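With 5 or 10 reads required in each library, the 422 isoforms became 265 and 143, those with another start codon 66 and 36 (123 at 3 reads), and the median share 17.2% and 23.3%. It was 13.8% with 2 reads, where 1 share was called. The median distance was 3612 bases with 10 reads. With 1 library left out, the number of isoforms ranged from 523 to 626, of which 403 and 405 are among the 422, the median distance from 2371 to 2566 bases, the median share from 13.2% to 15.3% and the number with another start codon from 140 to 175. Starts 500 or more bases apart gave medians of 5107 bases and 15.9%, and leaving out single-exon models gave 2338 bases and 15.9%. With protein-coding models only, 306 isoforms were left, with medians of 1209 bases and 19.1% and 0 shares called. As a percent of the reads of both models the median share was 18.9% and 1 share was called, and of all reads of the gene it was 11.2%. Of 172 shares of named isoforms under these denominators, 105 moved by less than the SD of the replicates and 67 by more. They moved by over 1.5 times in 28 of 86 with all reads of the gene, all lower, the most in Palld-202 (3.01%) and Pam-201 (37.0% to 7.46%), and in 10 with both models only, all higher. EdgeR's exact test with a preset variation called 0 levels in place of 1. The settings themselves change which reads and models are counted, or for edgeR the spread assumed, and no other cause was tested.

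Counts of 3 to 10 reads limit most shares, and the tests between the 2 libraries have no replicate check, so a left-out library gives no test. The deposited ends of Known models are those of the annotation, so a start inside an exon of the other model cannot be told apart from a shortened cDNA. No paired analysis was possible because there is 1 group, whose 2 libraries are the only samples.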

Other observations

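Spliced models outside the Known class also began at first exons that overlapped no annotated exon of the gene. In the 357 genes of the isoforms above, 209 such first-exon donors were read in either library, and 20 of them, in 15 genes, had 3 or more reads in each. The genes named here were chosen after their values were seen. Myh6, of the main myosin heavy chain of adult mouse heart, had the most, with 439 and 402 reads that left a donor at position 54967868 of chromosome 14, 1227 bases upstream of the leading start, beside 13416 and 12527 Known reads of the gene. A second Myh6 donor had 8 and 6 reads.
Tsc22d3, a gene known to respond to glucocorticoids, had 3 such donors upstream of its leading start on chromosome X, the nearest by 55691 bases, with 28 and 36, 12 and 15, and 13 and 9 reads, beside 179 and 129 Known reads. Myl2, of the ventricular myosin light chain, had 2 donors with 18 and 16 and with 7 and 10 reads, 7101 and 7256 bases upstream of the leading start. Corin, a protease that cleaves the precursor of atrial natriuretic peptide, had 10 and 16 reads from a donor 2365 bases downstream of the leading start, beside 48 and 61 Known reads. Trdn had 10 and 10 reads from a donor 57941 bases downstream of the start of its retained-intron leading model. These reads were in both libraries, and whether their first exons are complete at the 5′ end was not tested.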
